A study of Rattus norvegicus with 13 samples.

Results

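MicroRNAs (miRNAs), short RNAs that pair with messenger RNAs and lower their output, were compared between the 3 fat samples richest in the muscle miRNA miR-1 and the other 10 samples of the same study. The 3 arrays, Control 662, Control 664 and HFD 629, were chosen from 13 because they carried the highest level of rno-miR-1, with rno-miR-133b as a second marker, so these strands and their closest relatives are described here without a test. The question was which further miRNAs were higher or lower on those 3 arrays. Each array held RNA from the fat of 1 female Sprague Dawley rat, taken at 14 weeks of age. The fathers of 7 rats (Control) had eaten standard chow with 9% as fat, and those of 6 rats (HFD) a high-fat diet with 43% as fat. All fathers were mated at 15 weeks with chow-fed females, and all offspring ate chow. The submitters describe HFD offspring as glucose intolerant without a difference in body weight or adiposity. The fat depot, the litter and the father of each animal are not given in the sources used here. The 3 arrays hold 2 of the 7 Control and 1 of the 6 HFD samples. No label calls any sample muscle, and the number of muscle cells and the amount of RNA per cell cannot be told apart in bulk tissue.

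In striated muscle, miR-1 and miR-133a are made from shared transcripts, and miR-206 and miR-133b from another one that is known mainly from skeletal muscle. All of them are enriched in muscle fibres, where miR-1 and miR-206 favour differentiation. miR-499 lies within a slow myosin heavy chain gene, Myh7b, and miR-208 within cardiac myosin genes. White fat has no muscle fibres of its own, although muscle borders several fat depots.

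The mature sequences of the strands that set the 3 arrays apart are shown first, because they share seeds and in part nearly their whole sequence. miR-499, from the muscle list, is added and shares no seed with them. All are RefSeq sequences on build GRCr8, written 5′ to 3′, with the seed (bases 2 to 8) in capitals.
miR-1: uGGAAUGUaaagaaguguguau
miR-206: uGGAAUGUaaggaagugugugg
miR-133a: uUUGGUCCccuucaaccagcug
miR-133b: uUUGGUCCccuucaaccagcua
miR-499: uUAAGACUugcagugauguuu
miR-1 and miR-206 share the seed GGAAUGU and differ at 3 of 22 bases. miR-133a and miR-133b share the seed UUGGUCC and differ at 1 of 22 bases, so a probe for one may also read the other, and their levels are uncertain as separate quantities. The hairpins of Mir1 and Mir133a1 lie 2368 bases apart on the minus strand of chromosome 18. Those of Mir206 and Mir133b lie 3801 bases apart on the plus strand of chromosome 9.

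A level is given as log2 of the signal divided by a reference brightness of the same array, its 75th percentile over 260 probes that every array detected. The floor was -5.67, and values at the floor have no order. miR-1 lay at 2.50 on Control 662, 1.94 on Control 664 and 2.74 on HFD 629. On the other 10 arrays it ran from -5.24 to -1.28 with a median of -4.53. The lowest of the 3, Control 664, was thus separated from the highest of the others, HFD 619, by a wide gap, and the next array, Control 658, lay at -2.99. Relative to the median of the other 10, miR-1 was 155-fold higher on HFD 629, 130-fold on Control 662, 88.9-fold on Control 664, 9.51-fold on HFD 619 and 2.91-fold on Control 658. The remaining 8 arrays lay between -5.24 and -4.12.

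miR-133b followed the same order at the top, with 2.61 on HFD 629, 2.36 on Control 662 and 1.67 on Control 664. It lay at -1.59 on HFD 619, -1.82 on Control 658 and between -5.37 and -4.33 on the other 8. miR-133a, the partner of miR-1, lay at -2.21 on Control 662, -2.82 on Control 664 and -1.92 on HFD 629. It was detected on 2 of the other 10, at -5.35 on Control 658 and -5.39 on HFD 619, and was at the floor on 8. Its opposite strand, miR-133a*, lay at -2.94, -3.61 and -2.65 on the 3 arrays in the same order and was not well above background on any of the 10, a difference of at least 6.06-fold between means of -3.07 and -5.67. miR-206, the skeletal muscle strand, lay at -1.46, -1.92 and -2.59 and was not well above background on any of the 10, a difference of at least 12.7-fold between means of -1.99 and -5.66. Both are bounds because values of the 10 below the floor were set to the floor.

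The 3 arrays were not alike in all muscle strands. Against Control 662, HFD 629 was higher by 0.25 on the log2 scale for miR-1, 0.25 for miR-133b, 0.30 for miR-133a and 0.28 for miR-133a*. For miR-206 it was instead lower, by a log2 difference of -1.13, and for miR-499 by -0.36. Control 664 was lower than Control 662 for all 6, with differences from -0.69 for miR-133b to -0.46 for miR-206. Of 11 muscle miRNAs on the array 6 were detected, all on at least 1 of the 3 arrays, and 4 of these on at least 1 of the other 10. The heart strands miR-208, miR-208* and miR-208b-3p were among the 5 detected on no array.

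**Figure D1:**
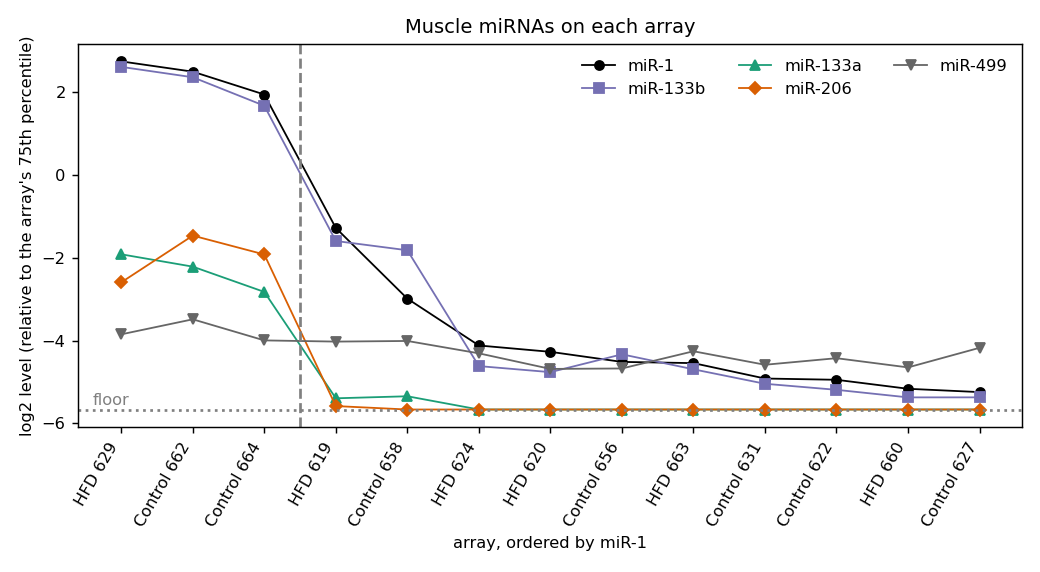
Log2 level of 5 muscle miRNAs (y axis, relative to each array's 75th percentile) on the 13 arrays, ordered on the x axis by miR-1, with lines joining the points of 1 miRNA. Left of the dashed line the 3 chosen arrays lie at 1.94 or above for miR-1, and right of it HFD 619 and Control 658 lie between them and the other 8; the dotted line is the floor, and miR-499 spans a much narrower range than the others.

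The RNA of the 3 arrays did not give clearly more detected miRNAs. They detected 176 ± 11.3 miRNAs (SD, n = 3) against 169 ± 12.1 (SD, n = 10), with p = 0.455 in a two-sided exact permutation test over all 286 splits, whose smallest possible p is 0.00699. The share of spots well above background was 23.5% ± 1.14 (SD, n = 3) against 22.0% ± 1.40 (SD, n = 10), and the adjusted exact permutation p over the 4 array measures was 0.168. Summed signal was 4.99e+06 against 4.00e+06 intensity units (exact permutation p = 0.0350, adjusted p = 0.140). The 4 measures were taken with the muscle strands that set the 3 arrays apart included. Their p-values therefore draw in part on the values behind the choice, and nothing is read from them. The number of arrays limits the precision. By slide, HFD 629 lay on slide 1 with 7 of the other arrays, and Control 662 and Control 664 on slide 2 with 3 of them.

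The array carried 677 rat miRNAs, and 206 gave signal above background somewhere. Detection on at least 6 arrays was required for a test, which left 174 miRNAs once the strands used to choose the arrays were set aside. Between the 3 arrays and the other 10, 13 miRNAs (7.47% of those tested) passed an adjusted p of 0.05 in limma, 11 higher (6.32%) and 2 lower (1.15%). The filter counted the 3 arrays too, and 9 of the 174, among them 4 of the 11 higher, met it only with them. When detection on at least 6 of the other 10 arrays was asked instead, 7 of 165 were higher and 2 lower, all among the 13. That setting was chosen after the data were seen. At an unadjusted p under 0.05 there were 39 (22.4%). The 3 arrays lay above all 10 others for 7 miRNAs (4.02%) and below all 10 for 1 (0.575%). Because the samples were grouped by a measured miRNA, an adjusted p says only that another miRNA moved with this split of 13 arrays. It sets the difference against the spread between these 13 arrays, taken as independent, although litter and father are not given.

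The tested miRNAs divided evenly into 87 higher and 87 lower, and the median difference was near 0 (0.00089 on the log2 scale). This balance depended on the scaling. The reference probes of the main scaling included probes of muscle miRNAs, which differ most between the groups. With muscle probes left out of the percentile the median was 0.05 and 106 miRNAs were higher. The calls were then 15 higher and 1 lower, which kept all 11 higher and 1 of the 2 lower ones. With the 75th percentile over all probes the median moved to -0.19 and the calls to 4 higher and 30 lower, and with quantile normalization to -0.15 with 3 higher and 32 lower. Total gene signal gave a median of -0.11 with 0 higher and 2 lower, median scaling -0.05 with 2 higher and 2 lower, and the deposited value table -0.13 with 0 higher and 0 lower (35 at an unadjusted p under 0.05 in limma). The 11 higher miRNAs kept their direction under the percentile, median, quantile and total gene signal scalings, as did the 2 lower ones. In the deposited table, all but miR-142-5p of the 11 did.

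**Figure D2:**
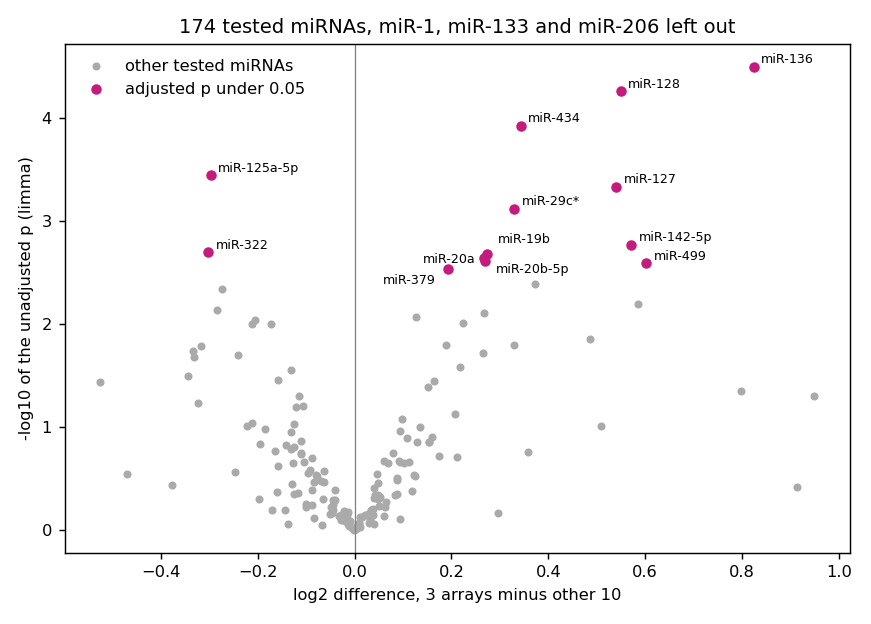
Each point is 1 of 174 tested miRNAs, placed by its log2 difference between the 3 arrays and the other 10 (x axis) and by -log10 of its unadjusted limma p (y axis). The coloured points are the 13 with an adjusted p under 0.05, of which 11 lie to the right of 0 and 2, miR-125a-5p and miR-322, to the left.

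The 4 higher miRNAs that met the filter only with the 3 arrays all came from the imprinted Dlk1-Dio3 region, namely miR-136, miR-434, miR-127 and miR-379. miR-136 was detected on 4 of the other 10 arrays, and miR-434, miR-127 and miR-379 on 3 each. Each was thus let into the test by its detection on the arrays where it was high, so the values of these 4 are a description, and their p-values and their number support nothing. This region carries a large group of miRNAs expressed from the maternal chromosome and is known for high expression in embryo, brain and developing muscle. miR-127, miR-136 and miR-434 lie antisense to the retrotransposon-like gene Rtl1, and miR-379 heads a second group further along. The hairpins of Mir127 (chr6:134328454-134328550), Mir434 (chr6:134330402-134330482), Mir136 (chr6:134331335-134331416) and Mir379 (chr6:134543445-134543529) all lie on the plus strand of chromosome 6 on GRCr8. The strands of Mir127 and Mir379 are shown because neighbours on 1 chromosome do not share a seed here.
miR-127: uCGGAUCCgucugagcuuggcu
miR-379: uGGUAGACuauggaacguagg

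miR-136 lay at -4.55 on Control 662, -4.67 on Control 664 and -4.84 on HFD 629, and from -5.67 to -5.04 (median -5.64) on the other 10. All 3 arrays were above every other array. The means were -4.69 ± 0.14 (SD, n = 3) and -5.51 ± 0.23 (SD, n = 10), which is 1.77-fold and 0.82 ± 0.13 (SE) in log2 units, at an adjusted p of 0.00486 in limma. It was at the floor on 5 of the 10, so the floor both understates the fold and narrows the spread. Within slide 1 the difference was 0.63 and within slide 2 it was 1.0.

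miR-434 lay at -5.27 on Control 662, -5.12 on Control 664 and -5.49 on HFD 629, and from -5.67 to -5.53 (median -5.67) on the other 10, 7 of them at the floor. The groups did not overlap. The difference was 0.34 ± 0.06 (SE), 1.27-fold, with an adjusted p of 0.00696 in limma. miR-127 lay at -4.86, -4.91 and -5.22 on the 3 arrays in the same order and from -5.67 to -5.20 (median -5.65) on the other 10. HFD 629 fell within the range of the 10 and the 2 Control arrays above it. The difference was 0.54 ± 0.12 (SE), 1.45-fold (adjusted p = 0.0164 in limma), and without Control 662 the adjusted p was 0.0737.

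miR-379 had an adjusted p under 0.05 as well (difference 0.19 ± 0.05, SE, adjusted p = 0.0396 in limma). It is named after its values were seen, since it lies outside the rule for named miRNAs. It lay at -5.38 on Control 662 and -5.37 on Control 664 but at the floor on HFD 629 and on 9 of the other 10, so the difference came from the 2 Control arrays. Within slide 1 it was -0.0026 and within slide 2 it was 0.29, and the call was lost when any 1 array other than Control 658, HFD 629 or HFD 660 was left out (adjusted p up to 0.242). Of 39 miRNAs listed for the region, 9 were detected and 8 tested, and the 4 above passed, beside 6.32% of all tested that rose. Those 4 met the filter only with the 3 arrays counted, so this count is no result about the region. The remaining 4, with differences from -0.32 for miR-376b-3p to 0.09 for miR-494, did not pass.

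Next came a pair of miRNAs with no shared cluster. miR-128, which is abundant in brain and also known from skeletal muscle, rose with the same adjusted p as miR-136, and miR-29c* rose as well. Its strand has 2 loci in the rat, Mir128-1 on chromosome 13 and Mir128-2 on chromosome 8. miR-29c* comes from the Mir29c hairpin on chromosome 13, whose main strand is known for lowering collagen messages. Both sequences are those of the RefSeq strands matched by name to the array, with no probe sequence at hand to check the match.
miR-128: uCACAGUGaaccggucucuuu
miR-29c*: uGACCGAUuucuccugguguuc

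miR-128 lay at -4.81 on Control 662, -4.80 on Control 664 and -4.60 on HFD 629, and from -5.51 to -5.03 (median -5.27) on the other 10, none at the floor. All 3 arrays were above every other array. The means were -4.73 ± 0.12 (SD, n = 3) and -5.28 ± 0.15 (SD, n = 10), a difference of 0.55 ± 0.09 (SE), 1.46-fold, with an adjusted p of 0.00486 in limma. It was 0.69 within slide 1 and 0.48 within slide 2. With normexp background correction it was 0.18 (adjusted p = 0.141 in limma) and with the percentile over all probes 0.32 (adjusted p = 0.0346 in limma).

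miR-29c* lay at -4.96, -5.29 and -4.89 on Control 662, Control 664 and HFD 629, and from -5.49 to -5.21 (median -5.37) on the other 10. Control 664 fell inside the range of the others. The difference was 0.33 ± 0.08 (SE), 1.26-fold, with an adjusted p of 0.0223 in limma, and the call was lost without Control 662 or without HFD 629 (adjusted p up to 0.132). The main strands miR-29a, miR-29b and miR-29c, which are tested members of the smooth muscle and fibroblast list, differed by -0.04, -0.0011 and 0.04 and did not pass.

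Among miRNAs fixed as markers of nerve and glia, 5 of 14 on the array were tested and 1, miR-128, rose, a share of so few that it is not read against the 6.32% of all tested that rose. The others differed by 0.91 ± 1.02 (SE) for miR-338, 0.30 ± 0.70 (SE) for miR-204, 0.03 for miR-7a and -0.05 for miR-218, and did not pass. miR-124, the defining marker of neurons, was detected on no array. miR-338, which is known from myelinating glia, lay at -2.0 on Control 662, -2.99 on Control 664 and 0.26 on HFD 629, and from -4.49 to 0.13 on the other 10. It thus divided the 3 arrays, with HFD 629 higher than every other array and the Control arrays inside the range. Without HFD 629 its difference was -0.00274. The part of nerve or glial RNA in the miR-128 difference was not tested.

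miR-499 was the only muscle-list miRNA outside the strands used to choose the arrays that could be tested. It lay at -3.49 on Control 662, -4.00 on Control 664 and -3.85 on HFD 629, and from -4.68 to -4.01 (median -4.37) on the other 10. Control 664 lay only just above the highest of the others. The means were -3.78 ± 0.26 (SD, n = 3) and -4.38 ± 0.26 (SD, n = 10), a difference of 0.60 ± 0.16 (SE). This is 1.52-fold (95% interval 1.19 to 1.93) with an adjusted p of 0.0376 in limma, against differences of 6.59 for miR-1 and 6.49 for miR-133b. The call was lost when any 1 of 7 arrays was left out, namely Control 622, Control 631, Control 656, Control 662, HFD 620, HFD 624 or HFD 629 (adjusted p up to 0.227). Its opposite strand, miR-499*, was detected on no array.

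The miR-17-92 cluster, known for promoting cell proliferation, and its paralogs made up the next group. They come from related transcripts whose members fall into a few seed families. The strands that passed are shown because a pair of them shares a seed.
miR-19b: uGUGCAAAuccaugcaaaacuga
miR-20a: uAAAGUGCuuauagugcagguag
miR-20b-5p: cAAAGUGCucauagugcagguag
miR-20a, from the Mir20a hairpin on chromosome 15, and miR-20b-5p, from Mir20b on chromosome X, share the seed AAAGUGC and differ at 2 of 23 bases, so their separate levels are uncertain. miR-19b has loci on both chromosomes.

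Of 11 listed members 9 were tested, all 9 were higher on the 3 arrays with a median difference of 0.27, and 3 passed. Of all tested miRNAs 87 of 174 were higher and 6.32% passed as higher. With the 75th percentile over all probes and with quantile normalization the list's median was near 0, at 0.0354 and 0.0251, which is 0.23 and 0.17 above the median of all tested miRNAs. Over 34 alternatives, other than those within 1 slide or 1 diet group, the difference of miR-19b went down to 0.0428. miR-19b lay at -1.48 on Control 662, -1.37 on Control 664 and -1.39 on HFD 629, and from -1.91 to -1.53 (median -1.69) on the other 10, with no overlap. Its difference was 0.27 ± 0.07 (SE), 1.21-fold, with an adjusted p of 0.0376 in limma.

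miR-20a lay at -2.67, -2.48 and -2.54 on the 3 arrays in the same order and from -3.03 to -2.68 on the other 10, with the lowest of the 3 barely above the highest of the 10. Its difference was 0.27 ± 0.07 (SE), and that of miR-20b-5p, whose groups overlapped, was 0.27 ± 0.07 (SE), both with an adjusted p of 0.0376 in limma. The calls of miR-19b and miR-20a were lost without Control 631, Control 662, Control 664, HFD 619, HFD 624 or HFD 629, and that of miR-20b-5p without Control 631, Control 656, Control 664, HFD 619, HFD 624 or HFD 629 (adjusted p up to 0.149). With slide as a block the 3 adjusted p were 0.0744, 0.0744 and 0.0641 in limma, at differences of 0.27, 0.27 and 0.29. Members that did not pass included miR-19a at 0.37 ± 0.11 (SE, adjusted p = 0.0512 in limma), miR-17-5p at 0.27, miR-92a at 0.27, miR-25 at 0.15, miR-106b at 0.11 and miR-93 at 0.03.

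One strand of the Mir142 hairpin, known from blood cells of many lineages, rose as well.
miR-142-5p: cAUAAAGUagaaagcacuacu
miR-142-5p lay at -2.65 on Control 662, -2.04 on Control 664 and -2.70 on HFD 629, and from -3.32 to -2.75 (median -3.08) on the other 10. The groups did not overlap, although Control 662 and HFD 629 lay close to the top of the 10. The difference was 0.57 ± 0.14 (SE), 1.49-fold, with an adjusted p of 0.0376 in limma. It was 0.30 within slide 1 and 0.78 within slide 2, and the call was lost without Control 662, Control 664, HFD 619 or HFD 624 (adjusted p up to 0.142). In the deposited table its difference was -0.87.

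The opposite strand, miR-142-3p, lay at 0.20, 0.91 and 0.14 on the 3 arrays in the same order and from -0.36 to 0.30 on the other 10. Only Control 664 lay above the range of the others, and the difference of 0.49 ± 0.17 (SE) did not pass (adjusted p = 0.103 in limma). Of 7 tested white blood cell and macrophage miRNAs, 1 rose, which beside the 6.32% of all tested is no result about the list. The other 6 differed by 0.36 for miR-146b, 0.12 for the myeloid miR-223, -0.10 for the lymphocyte miR-150, -0.03 for miR-146a and -0.000211 for miR-342-3p, beside miR-142-3p. The mean level of the list ran from -1.90 to -1.43 on the 3 arrays and from -2.24 to -1.71 on the other 10, and was highest on Control 664. The part of white blood cells in the miR-142-5p difference was not tested.

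Red blood cell miRNAs had the highest list median, 0.80 over 3 tested members, yet 0 passed. miR-451, the main miRNA of erythrocytes, lay at 2.04 on Control 662, 2.30 on Control 664 and 2.60 on HFD 629, and from 0.62 to 2.48 (median 1.49) on the other 10. Its groups overlapped, since Control 658, HFD 660 and HFD 663 reached 2.10, 2.32 and 2.48. The difference was 0.80 ± 0.36 (SE), with an adjusted p of 0.203 in limma. miR-144, from the same transcript, differed by 0.95 ± 0.44 (SE, adjusted p = 0.215 in limma) and miR-144* by 0.51.

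On the lower side, miR-125a-5p and miR-322 fell. miR-125a-5p shares a cluster with let-7e and miR-99b. miR-322, the rodent counterpart of miR-424, carries the seed of the miR-15/16 family, which restrains the cell cycle.
miR-125a-5p: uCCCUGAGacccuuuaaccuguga
miR-322: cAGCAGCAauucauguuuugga
miR-125a-5p lay at -1.89 on Control 662, -1.70 on Control 664 and -1.94 on HFD 629, and from -1.73 to -1.43 (median -1.54) on the other 10. Control 664 lay within the range of the others. The difference was -0.30 ± 0.06 (SE), 0.814-fold, with an adjusted p of 0.0158 in limma. It was -0.38 within slide 1 and -0.29 within slide 2, and the call was lost without Control 662 or without HFD 629 (adjusted p up to 0.0871).

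Its cluster partners lay lower too without passing, with miR-99b at -0.28 ± 0.09 (SE, adjusted p = 0.0756 in limma) and let-7e at -0.21 ± 0.07 (SE, adjusted p = 0.0766 in limma). The opposite strand of the same hairpin, miR-125a-3p, had a difference of the other sign, 0.33 ± 0.12 (SE, adjusted p = 0.107 in limma). It was dim, at -5.20, -5.01 and -5.40 on the 3 arrays and from the floor to -5.03 on the other 10. The remaining tested members of the miR-99, miR-100 and miR-125 families differed by 0.09 for miR-99a, 0.13 for miR-100 and 0.09 for miR-125b-5p.

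miR-322 lay at -1.09 on Control 662, -1.04 on Control 664 and -1.21 on HFD 629, and from -1.01 to -0.63 (median -0.82) on the other 10. All 3 arrays were below every other array. The difference was -0.30 ± 0.08 (SE), 0.811-fold, with an adjusted p of 0.0376 in limma, and the call was lost without Control 662, HFD 619, HFD 624 or HFD 629 (adjusted p up to 0.162). Of the 7 tested miR-15/16 family miRNAs it alone passed, beside 1.15% of all tested that fell, and nothing is read from 1 member. The clustered pair miR-195 and miR-497 differed by -0.33 ± 0.12 (SE) and -0.33 ± 0.13 (SE), with adjusted p of 0.114 and 0.120 in limma. miR-15b, miR-16, miR-503 and miR-322* differed by 0.12, 0.09, 0.06 and 0.01.

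**Figure D3:**
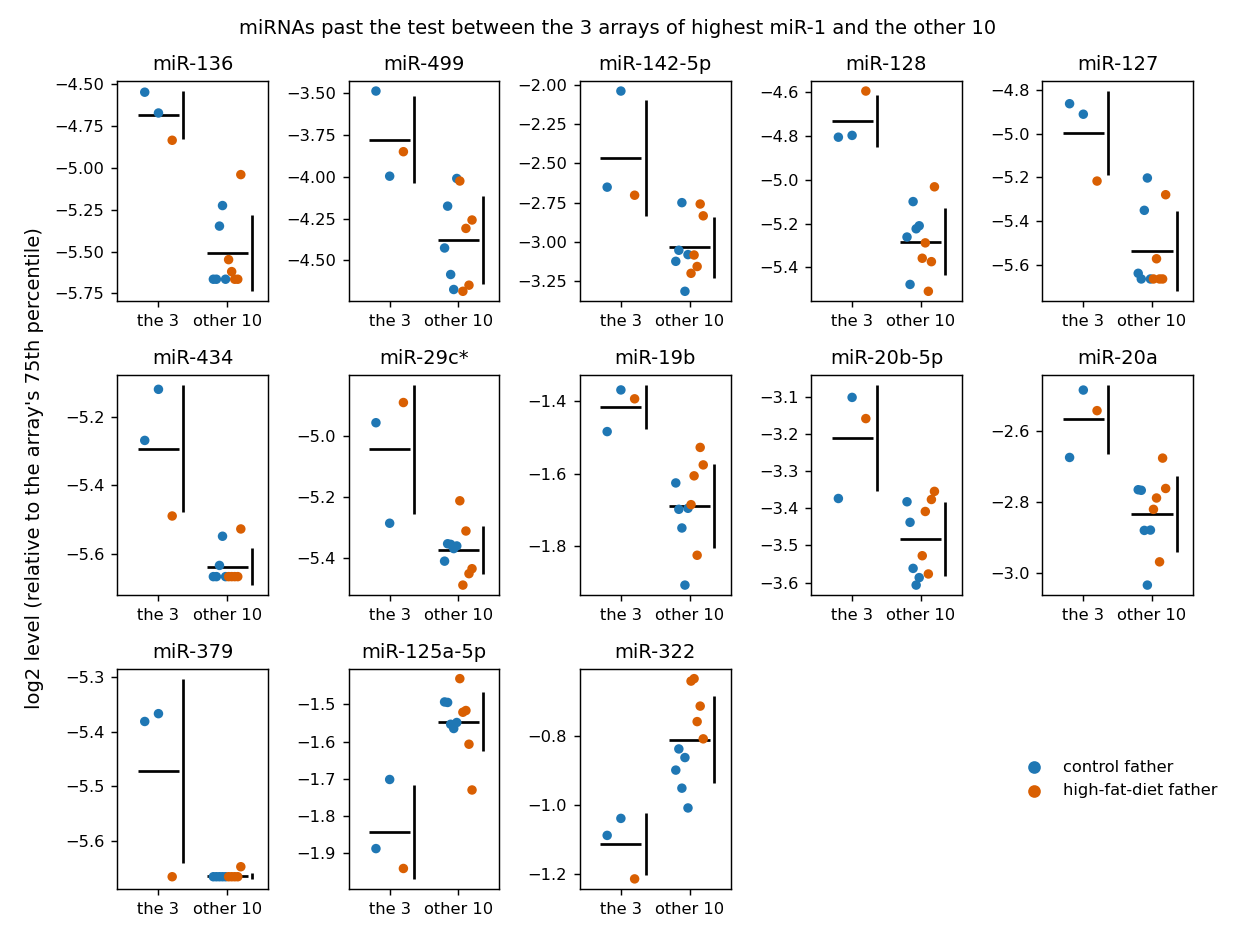
Log2 level (y axis, a separate scale in each panel) of the 13 miRNAs that passed, on the 3 arrays and on the other 10, with points coloured by the father's diet. Horizontal bars are means and vertical bars span the mean ± 1 SD beside each group; for miR-136, miR-128 and miR-322 the groups do not overlap, while miR-379 is raised on 2 Control arrays alone.

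Of 15 tested miRNAs known as enriched in fat cells or as promoting their formation, 0 passed and 5 were higher and 10 lower, with a median difference of -0.07. Since 7.47% of all tested miRNAs passed, a count of 0 in a list of this size is no result about the list. miR-335, which is raised in fat of obese rodents, lay at 0.67 on Control 662, 0.72 on Control 664 and 0.12 on HFD 629, and from 0.08 to 1.51 (median 1.06) on the other 10. Its difference was -0.52 ± 0.23 (SE, adjusted p = 0.175 in limma), at -1.03 within slide 1 and -0.06 within slide 2. miR-103, miR-107, miR-143 and miR-378 differed by -0.22, -0.13, -0.38 and 0.17. The mean level of the list ran from -1.50 to -1.47 on the 3 arrays, inside the range of the other 10, -1.54 to -1.25. Of 7 miRNAs that restrain fat cell formation 2 were higher and 5 lower, with miR-130a at -0.24 ± 0.09 (SE, adjusted p = 0.117 in limma) and miR-22 at -0.14.

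For markers of other cells of the tissue the counts were also 0 of few, and the values are given as a description. Of 11 smooth muscle, fibroblast and pericyte miRNAs 3 were higher and 8 lower (median -0.04), with miR-145 at -0.47 ± 0.42 (SE) and miR-199a-3p at 0.21. miR-145 reached 0.09 on Control 658 and lay at or below -1.96 elsewhere. Of 5 endothelial miRNAs 1 was higher and 4 lower (median -0.14), with miR-126, the defining marker, at -0.21 ± 0.07 (SE, adjusted p = 0.0766 in limma). The epithelial miR-203 differed by -0.32 ± 0.12 (SE, adjusted p = 0.107 in limma) and miR-205 by -0.0035. The liver and gut miRNAs miR-122, miR-192 and miR-194 differed by -0.14, -0.16 and -0.02.

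Among larger families, the let-7 members were lower for 7 of 8 (median -0.11, 0 called) and the miR-181 members for 4 of 4 (median -0.12, 0 called). Of all 174 tested miRNAs 87 were lower, 87 were higher and 7.47% were called. Beside that share, 0 called in a family of such size is no result about the family. The miR-23/27/24 clusters were lower for 4 of 6 (median -0.08, 0 called), with miR-23a at -0.16 and miR-24 at -0.13. The miR-30 family was higher for 7 of 7 (median 0.15, 0 called), led by both strands of its miR-30e hairpin, miR-30e at 0.22 ± 0.09 (SE, adjusted p = 0.145 in limma) and miR-30e* at 0.22 ± 0.07 (SE, adjusted p = 0.0766 in limma). Within slide 2 the miR-30 median was -0.02, and with the percentile over all probes both strands of miR-30e turned slightly negative (-0.01 and -0.0085). The counts by direction are those of the main scaling with nothing subtracted, and another scaling moves every member together. With the percentile over all probes, medians relative to that of all tested miRNAs were -0.15 for let-7 and -0.03 for miR-181. They were -0.09 for miR-23/27/24 and 0.11 for miR-30.

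**Figure D4:**
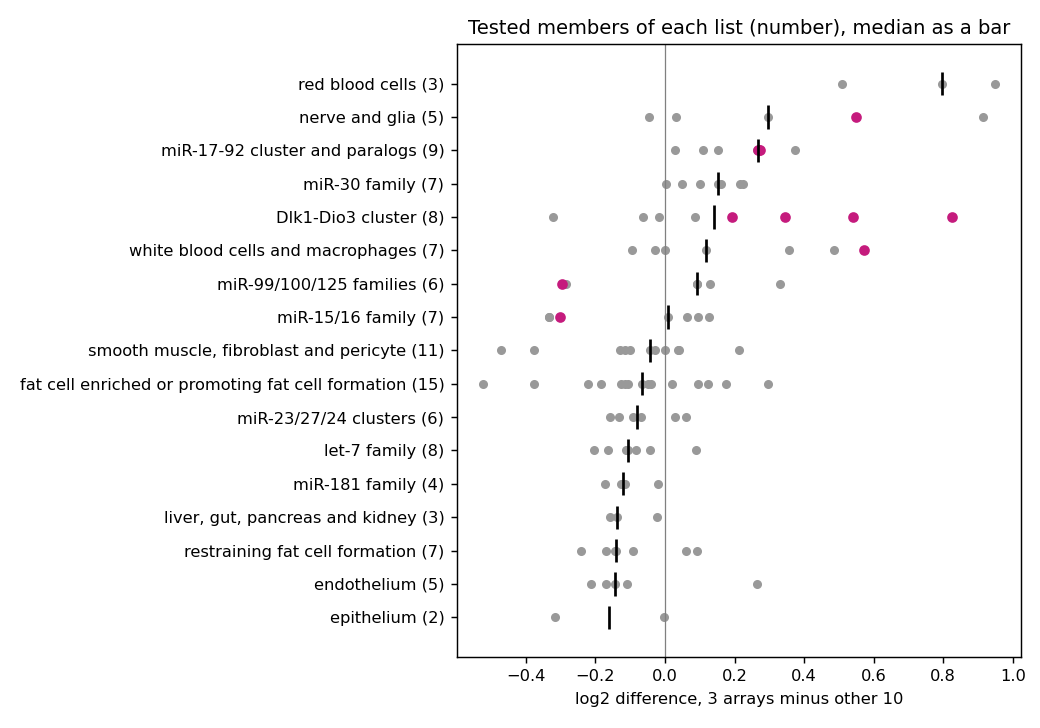
Log2 differences between the 3 arrays and the other 10 (x axis) for the tested members of each list other than the muscle list, whose 1 tested member is miR-499 (rows, number tested in brackets), with a bar at the list's median. Coloured points passed an adjusted p of 0.05: 4 in the Dlk1-Dio3 row, 3 in the miR-17-92 row, and 1 each in the nerve, white blood cell, miR-15/16 and miR-99 to miR-125 rows. Of all 174 tested miRNAs 7.47% passed. The 4 in the Dlk1-Dio3 row met the detection filter only with the 3 arrays counted, so their number is no result about that list.

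miRNAs below the detection filter added little. Of 27 such miRNAs other than those used for the choice, 0 were detected on all 3 arrays, 17 on some of the 3 and 10 on none. The epithelial miR-200a and miR-200b were each detected on 2 of the 3, and on 3 and 2 of the other 10. miR-200a lay at -5.24 on Control 662 and -4.81 on Control 664 but at the floor on HFD 629, and reached -5.39 at most on the other 10. miR-200b lay at -5.50, -5.02 and the floor, and reached -5.57 at most on the other 10. The tested epithelial miRNAs, miR-203 and miR-205, were not higher on the 3 arrays (-0.32 and -0.0035).

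Among the other 10 arrays miR-1 still varied from -5.24 to -1.28, mostly through HFD 619 and Control 658, and each miRNA's slope on miR-1 was fitted over those 10. Of 173 miRNAs 0 passed (0%) in limma, and 19 had an unadjusted p under 0.05 (11%). The lowest adjusted p, 0.0541, belonged to miR-125a-3p, with a slope of 0.14 ± 0.03 (SE) log2 units per unit of miR-1. One miRNA, at the floor on all 10 arrays, was left out of this fit after its effect on the estimated spread had been seen. When it was kept, miR-125a-3p passed at an adjusted p just under 0.05 in limma, and without Control 658 at 0.0156. With slide as a block the lowest adjusted p was 0.975.

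These 10 arrays also serve in the split, so values are only set side by side. The slopes were -0.02 for miR-136, -0.0083 for miR-128, -0.0081 for miR-434 and -0.04 for miR-127, each smaller than its SE. miR-499 and miR-29c* had slopes of 0.13 ± 0.06 (SE, unadjusted p = 0.0368) and 0.04 ± 0.02 (SE, unadjusted p = 0.0468) in limma. miR-125a-5p and miR-322, lower on the 3 arrays, had slopes of 0.03 and 0.03. By Spearman's rho with miR-1 over all 13 arrays, the miRNAs most like it were miR-30e* at 0.835, miR-125a-3p at 0.770 and miR-29a* at 0.747, as a description in which the 3 arrays and their scaling are shared. Their differences on the 3 arrays did not pass, and that of miR-29a* was 0.04.

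The comparison was also made with the father's diet and the slide in view. With diet as a covariate 13 miRNAs were higher and 3 lower, and the 11 and 2 above were among them. The difference between the 3 arrays and the others was then set against diet. On the HFD side this sets the single array HFD 629 against 5, with its spread assumed to be that of the other arrays. The interaction passed for 0 of 174 miRNAs (0%) in limma, with 16 at an unadjusted p under 0.05 (9.2%). The lowest adjusted p was 0.0743, for miR-379. For miR-322 the difference was -0.15 among Control arrays (2 against 5) and -0.50 among HFD arrays (1 against 5), with an adjusted interaction p of 0.344 in limma. For miR-136 it was 0.90 and 0.67, for miR-128 0.45 and 0.72, and for miR-499 0.63 and 0.54.

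With slide as a block 5 miRNAs were higher and 2 lower, all among those above. The 5 were miR-136 and miR-128 (adjusted p = 0.00981 in limma for both), miR-434 (0.0180), miR-127 (0.0326) and miR-29c* (0.0326). For miR-136, miR-434 and miR-127 the limit of the filter given above holds here too, so these p-values support nothing. Of the higher calls, only miR-128 and miR-29c* lie outside that limit. miR-125a-5p (0.0107) and miR-322 (0.0326) were the 2 lower. Leaving out 1 array at a time, miR-136, miR-128 and miR-434, the first and last within the limit of the filter given above, passed in all 13 fits, with adjusted p up to 0.0370, 0.0370 and 0.0487 in limma, and the other 10 called miRNAs were each lost at least once. Leaving out both HFD 619 and Control 658, the next arrays by miR-1, gave 16 higher and 7 lower, with the 11 and 2 above still among them. That setting was chosen after the data were seen.

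**Figure D5:**
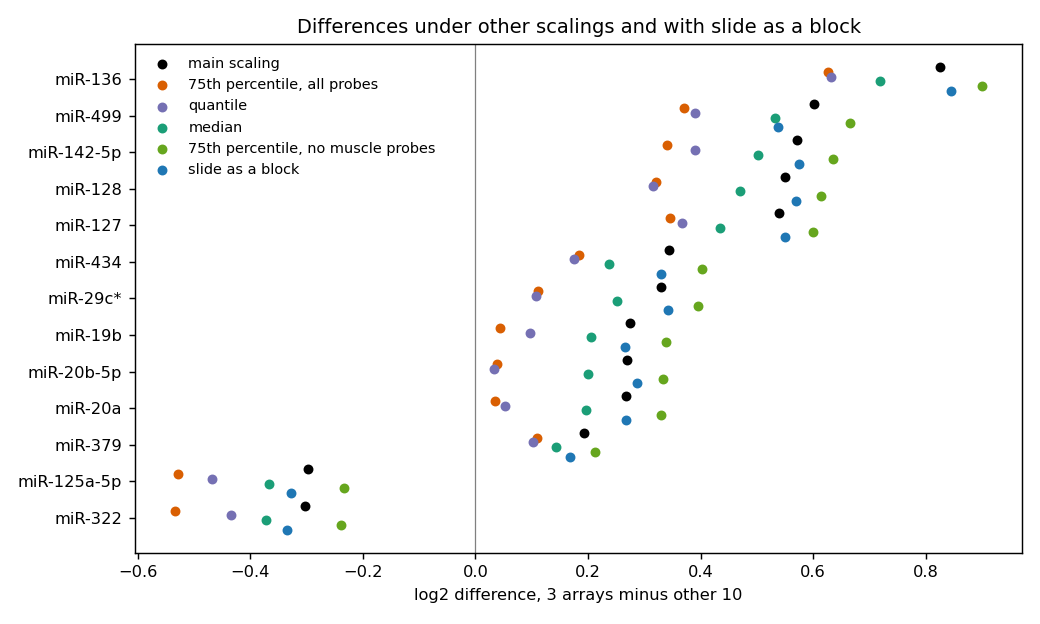
Log2 difference between the 3 arrays and the other 10 (x axis) for the 13 miRNAs that passed (rows), under the main scaling, 4 other scalings and with slide as a block. Points of 1 row share a side of 0 in all 13 rows, while the percentile over all probes and quantile normalization shift every row to the left; for miR-136 the values run from 0.63 to 0.90.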

How the data were processed

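Each array held Cy3-labelled total RNA (100 ng, miRNeasy kit) of 1 animal on an Agilent 1-colour rat miRNA array, per the labels' protocols. The authors scanned and read the arrays with Agilent's Feature Extraction (version 10.7.3.1, grid of build rn4), and the spot intensity used here is background-subtracted and on a linear scale, per the file headers. The deposited value table holds log2 of the authors' total gene signal with no scaling between arrays, found by setting it against the scanner values (26 of 2569 values were off by more than 2e-04). Its column medians ran from 6.95 to 7.77, and it served as an alternative only. RMA and Partek appear in the submitters' processing notes, with no role stated.

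Control and outlier-flagged spots were left out of 13540 spots of 1644 probes. Spots were averaged per probe, scaled to the 75th percentile of the probes detected on every array, floored at 0.0197, taken to log2 and averaged per miRNA. Detection of a miRNA on an array needed 1 probe with a share of 0.5 or more of its spots flagged well above background. For the comparison of 3 with 10 arrays lmFit and eBayes of limma 3.58.1 were run under R 4.3.3, two-sided, and p-values were adjusted by Benjamini-Hochberg. On 20 simulated sets of 3 against 10 arrays the fit recovered 48.5% of changes of 0.25 and 85.5% of changes of 0.5 (log2), with 40 miRNAs changed at once, and 3.56% of its calls were false. The simulated noise was independent between miRNAs, with no floor and no effect shared by an array. More miRNAs were changed than the 13 called here, so these rates need not hold for the real values. A miRNA at the floor on every fitted array was left out of the fit concerned, a choice made after its effect had been seen.

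The members and lists were chosen with earlier results of these data known, so no list is independent evidence. Named were all detected muscle miRNAs, the 10 miRNAs of lowest p on either side, at most 2 per list, and the 3 most like miR-1. Other list members are given to complete their list and were chosen after their values were seen. Names are those of the array design, matched by arm to RefSeq for 15 sequences. Sequences of miR-136 and miR-434 were not used here. The normexp alternative used median signals. Other alternatives were scalings, floor, filter, spread estimate, diet, slide and arrays left out.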

Additional observations from a re-analysis of the deposited data

Results flagged for a closer look

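Within the 7 Control or the 6 HFD arrays, 102 sets of values were examined for an array far from the rest of its diet group, and 10 were found. Chance marks about 1 in 20 groups, but that rate is no baseline here. Many of these miRNAs were named for a low p between the 3 arrays and the others. Of the 10 found, 7 concern one of the 3 arrays of highest miR-1, and 5 concern HFD 629. That choice favours an array of the 3 being found, so nothing is read from these counts.

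HFD 629 was far above the other HFD arrays for the muscle strands miR-133a (-1.92), miR-133a* (-2.65) and miR-206 (-2.59). These strands were set aside from the test with miR-1, by which the array was chosen. HFD 629 was far below the other HFD arrays for miR-322 (-1.21) and for miR-335 (0.12). Control 662 was far above the other Control arrays for miR-29c* (-4.96), although Control 664 lay with the rest, and far below them for miR-130a (-0.0737). Outside the 3, HFD 619 was far above the other HFD arrays for miR-125a-3p (-5.03). Control 658 was far above the other Control arrays for miR-145 (0.0933), a smooth muscle miRNA. HFD 663 stood apart for miR-379 (-5.65) only because the other 5 HFD arrays were at the floor.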

How the results depend on the processing

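In the limma fit 11 miRNAs were higher and 2 lower. The counts were 4 and 30 with the 75th percentile over all probes, 15 and 1 without muscle probes in the percentile, 2 and 2 with median scaling, 3 and 32 with quantile normalization, 1 and 1 with normexp, 0 and 2 with total gene signal and 0 and 0 with the deposited value table. Within slide 1 and in HFD arrays the single array HFD 629 stood for the 3, so no count is given. In each of those fits 10 of the 11 higher miRNAs and the 2 lower ones kept their direction. The counts were 19 and 18 with arrayWeights and 5 and 2 with slide as a block. They were 7 and 2 over miRNAs detected on all 13 arrays, 2 and 0 within slide 2, and 4 and 0 in Control arrays. With the floor 4 times higher they were 4 and 2 over 112 miRNAs with any spread, and with no detection filter 12 and 2 over 194. Keeping miRNAs at the floor on every array, an alternative added after the data were seen, gave 0 and 0 at the higher floor, 3 and 0 with no filter, and 11 and 2 with the main filter, because rows with no spread enter the estimate. Without HFD 619 and Control 658, also added later, the counts were 16 and 7, and over miRNAs detected on at least 6 of the other 10 arrays, added later too, 7 and 2. Leaving out 1 array gave 4 to 15 higher (lowest without Control 662, highest without Control 658) and 0 to 9 lower (lowest without Control 662 or HFD 629, highest without Control 658). For the slope over 10 arrays the count of 0 became 1 with arrayWeights, with trend and robust fitting, with no detection filter and with the floor row kept, and ran from 0 to 1 with 1 array left out (1 without Control 658). Of 42 tested miRNAs named, miR-379 included, 9 changed sign somewhere, in 23 of 1554 refits, none past the threshold. miR-142-5p was -0.87 in the deposited table. With the percentile over all probes miR-199a-3p was -0.0196, miR-29a* -0.0187, miR-30e -0.0149 and miR-30e* -0.0085, and miR-29a* was -0.0234 with quantile normalization and -0.0044 within slide 2. In Control arrays miR-194 was 0.0138 and miR-338 -0.51, and with 1 array left out miR-338 ran from -0.00274 (without HFD 629) to 1.62. miR-379 was -0.0037 in HFD arrays and -0.0026 within slide 1. miR-205, at -0.0035 in the main comparison, was -0.42 within slide 1, -0.31 in HFD arrays, 0.0614 without muscle probes, 0.12 in Control arrays, 0.0095 with the slide block, 0.33 within slide 2 and from -0.208 to 0.175 with 1 array left out (above 0 in 7 of 13 refits). The cause of these moves was not tested. No paired analysis was possible because the animal numbers of the Control and HFD arrays do not recur between the groups. Dim miRNAs at the floor on many arrays, among them miR-136, miR-127, miR-434 and miR-379, have understated folds and a narrowed spread.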

Other observations

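A pattern of other miRNAs crossed the division by miR-1. miR-338, known from myelinating glia, was highest on HFD 629 (0.26), Control 656 (0.13) and HFD 663 (-0.39), and lay between -4.49 and -1.07 on the remaining 10 arrays. The same 3 arrays held the highest levels of miR-9, a neural miRNA, at -4.83, -5.10 and -5.04, with the remaining 10 at or near the floor (-5.65 at most). They also held the highest levels of miR-204, at -2.69, -3.03 and -1.95. One of these arrays, HFD 629, belonged to the arrays of highest miR-1, while Control 656 and HFD 663 lay at -4.51 and -4.54 for miR-1. Outside the arrays of highest miR-1, Control 656 and HFD 663 were also highest for miR-136 (-5.23 and -5.04), miR-127 (-5.20 and -5.28) and miR-434 (-5.55 and -5.53). For miR-128 and miR-379 HFD 663 alone was highest there (-5.03 and -5.65). Yet among the arrays of highest miR-1, HFD 629 was lowest for miR-136, miR-127 and miR-434. These miRNAs were picked after their values were seen, and no test was made.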
